A study of Homo sapiens with 12 samples.

Results

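The genes described here make cholesterol and fatty acids. They were the 34 rows of the deposited count table, of 58735 in all, whose gene symbol belonged to a fixed list of 5 regulators, 19 genes of the sterol branch and 10 genes of the fatty acid branch. RNA was measured in 2 established human cell lines from anaplastic thyroid carcinoma, a thyroid tumour that has lost most traits of its tissue. KHM-5M, labelled BRAF V600E, grew in RPMI-1640, and TTA-1, labelled BRAF WT, grew in DMEM. The cells were kept for 24 hours with 1 µM GDC-0994 (also named ravoxertinib), which blocks the kinases named ERK, the last of the MAPK pathway, or with its solvent DMSO. This gave 4 groups of 3 libraries: KHM-5M with GDC-0994, KHM-5M with DMSO, TTA-1 with GDC-0994 and TTA-1 with DMSO. Each BRAF genotype is represented by 1 line, so genotype, line and medium cannot be told apart. The labels do not say that replicates came from separate cultures, and p-values then measure only the spread between these libraries.

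Cholesterol and fatty acids are both built in the cytosol and endoplasmic reticulum from acetyl-CoA. Their enzymes share a set of regulators: the SREBP transcription factors, encoded by SREBF1 and SREBF2, are made as membrane precursors, and SCAP escorts them to the Golgi for cleavage when membrane sterols are low. The INSIG proteins hold SCAP and the precursor back when sterols are plentiful. SREBF2 is best known for driving sterol genes and SREBF1 for driving fatty acid genes, and growing tumour cells often synthesize their own lipids.

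The 12 libraries held total counts of 14952970 to 18389915. The share of counts from mitochondrial genes was 4.04% ± 0.24 in KHM-5M with GDC-0994 and 3.09% ± 0.215 in KHM-5M with DMSO, and it was 4.49% ± 0.424 in TTA-1 with GDC-0994 and 4.33% ± 0.183 in TTA-1 with DMSO (SD, n = 3). Of 10 genes that report ERK output, 9 fell and 1 rose in KHM-5M and 8 fell in TTA-1, with median log2 fold changes of -2.80 and -0.89. Of 8 thyroid markers, TG stayed at or below 0.133 CPM (counts scaled to a common library size) in every library. SLC5A5 stayed at or below 0.535 CPM. The 8 together summed to 206 to 223 CPM in KHM-5M with DMSO and 121 to 128 CPM with GDC-0994. In TTA-1 they summed to 3.55 to 4.75 CPM with DMSO and 3.53 to 5.21 CPM with GDC-0994. Under DMSO, all 3 that were tested (PAX8, FOXE1 and SLC26A4) were higher in KHM-5M than in TTA-1. PAX8 averaged 120 CPM with GDC-0994 and 210 CPM with DMSO in KHM-5M, and 3.65 and 3.59 CPM in TTA-1. The summed level of 5 adipocyte markers was at most 0.883 CPM, and that of 3 hepatocyte markers at most 0.573 CPM, in any library. TTA-1 DMSO replicates 1 and 2 were the least alike of any replicates, differing on average by 0.333 (log2, absolute) per gene, where other pairs differed by 0.111 to 0.238. Their deviations from the group mean correlated across genes with GC content at 0.656 in replicate 1 and -0.642 in replicate 2, and those of KHM-5M GDC-0994 replicates 1 and 3 at 0.557 and -0.511.

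DNA just upstream of 4 genes is shown because SREBF2 encodes the sterol regulator, TM7SF2 and HMGCS1 gave the largest sterol responses, and SCD was the most abundant gene of the fatty acid branch. The sequences are from the RefSeq promoter table, build GRCh38.p14, written 5′ to 3′ on the strand of the gene and ending before the first exon annotated in GENCODE 29. Capitals mark TCACNCCAC, a sterol regulatory element motif, and CCAAT, the NF-Y motif, on either strand. They are SREBF2 (chr22:41832855-41833078, plus strand), HMGCS1 (chr5:43313513-43313662, minus strand), SCD (chr10:100346983-100347123, plus strand) and TM7SF2 (chr11:65111788-65111817, plus strand, limited to 30 bases around the motif, which lie within the last exon of the neighbouring gene VPS51).
SREBF2: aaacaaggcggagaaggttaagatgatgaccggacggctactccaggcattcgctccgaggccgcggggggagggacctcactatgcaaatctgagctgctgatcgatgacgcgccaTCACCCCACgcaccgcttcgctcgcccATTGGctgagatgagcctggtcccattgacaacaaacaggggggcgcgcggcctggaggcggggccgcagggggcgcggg
HMGCS1: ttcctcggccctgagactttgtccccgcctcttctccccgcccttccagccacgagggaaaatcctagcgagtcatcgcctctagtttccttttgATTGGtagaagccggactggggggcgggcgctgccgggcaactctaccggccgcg
SCD: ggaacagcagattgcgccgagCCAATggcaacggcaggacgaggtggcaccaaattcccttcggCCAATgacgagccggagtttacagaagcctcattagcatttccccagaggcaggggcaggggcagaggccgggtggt
TM7SF2: ccgagcgccgATTGGctggtgtgctgggcc

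In the 250 bases before the RefSeq start, the SREBF2 promoter held TCACCCCAC beginning 133 bases before the start. It was the only one of the 30 members in the table with a match to TCACNCCAC in the 300-base window that ends 50 bases after the start, and 1.39% of all genes in the table had one. Other spellings of the element were not searched, so members without a match are not shown to lack it. CCAAT was present for 23 of 30 members, or 76.7%, against 39.7% of all genes in the table. It was present for 14 of 16 sterol genes, 7 of 9 fatty acid genes and 2 of 5 regulators. GGGCGG, the SP1 motif, was present for 28 of 30 members, or 93.3%, against 48.3% of all genes, and CACGTG, an E-box, for 5 of 30, or 16.7%, against 8.77%. The 27305 genes of the table were not limited to genes expressed in these lines, whereas every member passed the filter on low counts. A comparison with expressed genes alone was not made. The matches are of letters on either strand and were not tested as binding sites.

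Per length, the 3 most abundant members were fatty acid genes (the heat map of FPKM values). Others of that branch were low in the order of the 34, with ELOVL6 at rank 29 in KHM-5M and FADS2 at rank 30 in TTA-1, both with DMSO. SCD, the desaturase that makes oleate and palmitoleate, had the highest FPKM (fragments per kilobase, scaled to library size) in all 4 groups, at 350 ± 18.2 with GDC-0994 and 217 ± 6.51 with DMSO in KHM-5M, and 219 ± 2.62 with GDC-0994 and 213 ± 3.73 with DMSO in TTA-1 (SD, n = 3). ACLY, which releases cytosolic acetyl-CoA from citrate, and FASN, the fatty acid synthase, were the next 2 in every group. ACLY averaged 73.8 ± 3.37 and 81.5 ± 1.75 FPKM in KHM-5M with GDC-0994 and DMSO. It averaged 155 ± 3.73 and 156 ± 10.5 FPKM in TTA-1 with GDC-0994 and DMSO. The SDs of ACLY and FASN did not meet in any group, so their order held beyond the replicate spread. The bottom of the order differed by line. CYP51A1, which removes a methyl group from lanosterol, was lowest in KHM-5M at 1.31 ± 0.174 FPKM with GDC-0994 and 1.35 ± 0.0848 FPKM with DMSO. TM7SF2, the sterol reductase that acts after it, was lowest in TTA-1 at 0.567 ± 0.233 FPKM with GDC-0994 and 0.435 ± 0.0730 FPKM with DMSO. CYP51A1 shares 79.4% of its exon bases with other genes annotated on the same strand, so its low value is uncertain. CYP51A1 was next above TM7SF2 in TTA-1, at 1.00 ± 0.246 FPKM with GDC-0994 and 1.08 ± 0.611 FPKM with DMSO, where the SDs of the 2 genes met. In KHM-5M with DMSO, CYP51A1 and the next gene, SC5D at 1.41 ± 0.105 FPKM, did not differ beyond their SDs.

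**Figure D1:**
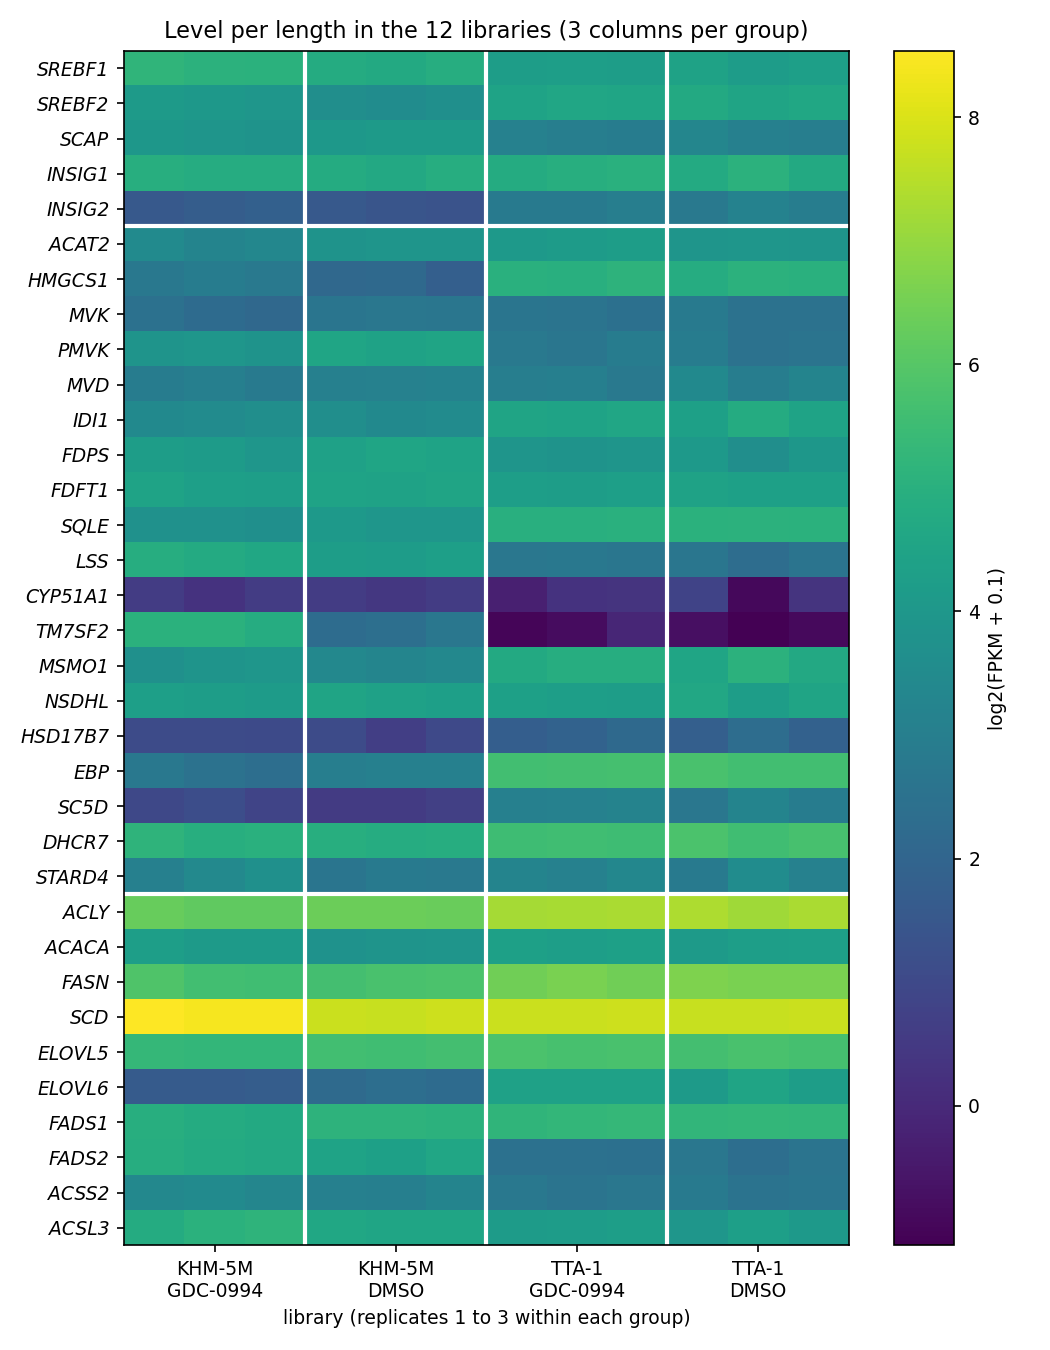
FPKM of the 34 genes (rows, grouped as regulators, sterol branch and fatty acid branch from the top) in the 12 libraries (columns, 3 per group), on the log2(FPKM + 0.1) scale. SCD is the brightest row in every group, and TM7SF2 is darkest in TTA-1 and bright in KHM-5M with GDC-0994.

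The question in KHM-5M was what ERK inhibition did to these genes. Of 34 genes, all of which passed the filter on low counts, 13 rose, 11 fell and 10 did not pass an adjusted p of 0.05 (edgeR quasi-likelihood test, adjusted over 16218 genes). The members called made up 70.6%, beside 49.8% of all genes tested. Of all genes, 24.6% rose and 25.1% fell. With a stricter filter on low counts, which all members also passed, 23 of 34 members and 6945 of 11877 genes were called. The median log2 fold change of the members was 0.01, beside 0.02 over all genes tested, and the changes were mostly small, with a median absolute log2 fold change of 0.29 and only TM7SF2 beyond 1. Both branches split. The sterol branch had 6 genes up and 6 down of 19 (median log2 fold change -0.08), the fatty acid branch 5 up and 4 down of 10 (0.09), and the regulators 2 up and 1 down of 5 (0.26). The libraries of GDC-0994 and DMSO did not overlap for 26 of the 34 members, 24 of them called, beside 61.0% of all genes tested and 97.8% of all genes called. In bulk RNA such as this, fewer cells of a kind and less RNA per cell cannot be told apart.

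**Figure D2:**
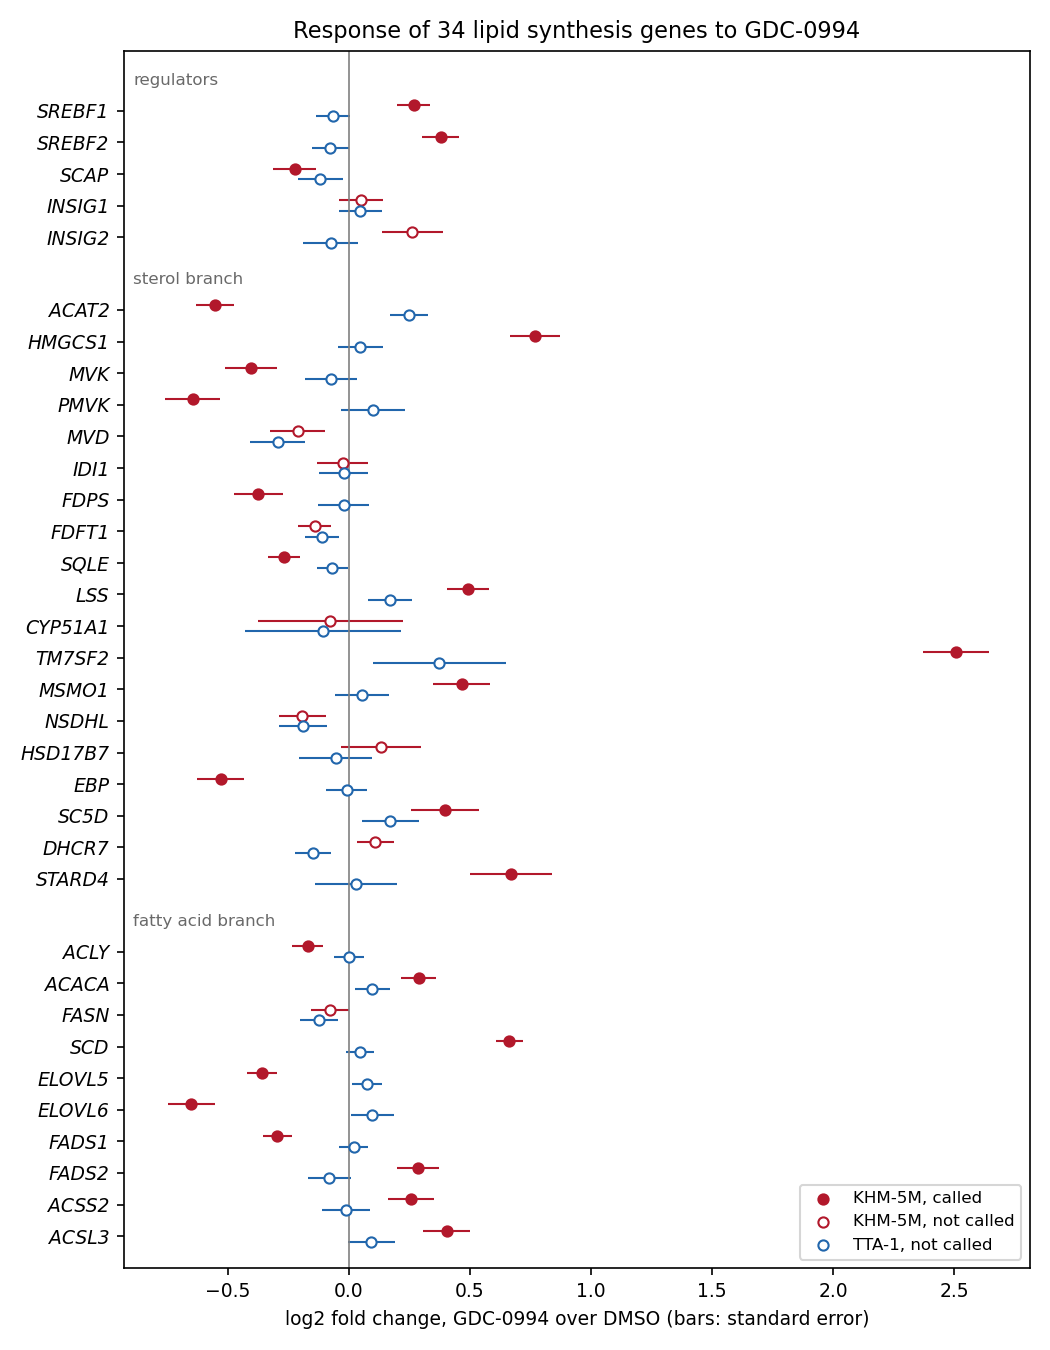
Log2 fold change of each gene, GDC-0994 over DMSO, in KHM-5M (red) and TTA-1 (blue), with bars for the standard error; filled points passed an adjusted p of 0.05. In KHM-5M 13 filled points lie right and 11 left of 0, with TM7SF2 at 2.51, and in TTA-1 no point is filled.

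Among the regulators, both SREBP genes rose in KHM-5M. SREBF1 had 292, 269 and 268 CPM with GDC-0994 and 230, 219 and 240 CPM with DMSO. SREBF2 had 131, 120 and 117 CPM with GDC-0994 and 94.9, 89.7 and 98.8 CPM with DMSO. All 3 treated libraries lay above all 3 DMSO libraries for both genes, with log2 fold changes of 0.27 ± 0.07 and 0.38 ± 0.08 (SE) and adjusted p-values of 0.00415 and 0.000589. SCAP, the escort, fell slightly, by 0.22 ± 0.09 on the log2 scale (adjusted p 0.0458), a call that was lost in 14 of 19 other settings. INSIG1, a retention factor that is itself an SREBP target, had 111, 104 and 106 CPM with GDC-0994 and 102, 96.6 and 111 CPM with DMSO. These groups overlapped, and the log2 fold change of INSIG1 was 0.05 with a 95% interval of -0.16 to 0.26. INSIG2, the other retention factor, had a log2 fold change of 0.26 ± 0.13 and did not pass (adjusted p 0.0952).

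The first steps of the sterol branch, from acetyl-CoA to squalene, had 1 of 8 genes up, 4 down and 3 not called. Of all genes tested, 24.6% rose and 25.1% fell. The gene that rose was HMGCS1 (chr5:43289395-43313512, minus strand, GRCh38), the synthase that makes HMG-CoA. HMGCS1 had 30.4, 34.9 and 32.3 CPM with GDC-0994 and 20.2, 20.8 and 16.2 CPM with DMSO, so the groups were well apart. It rose by 0.77 ± 0.10 on the log2 scale (adjusted p 9.85e-06). ACAT2, the thiolase 1 step before it, went the other way, with 47.4, 39.6 and 43.6 CPM with GDC-0994 and 61.2, 64.9 and 65.7 CPM with DMSO. Its log2 fold change was -0.55 ± 0.08 (adjusted p 2.09e-05), but 52.3% of its exon bases lie opposite exons of other genes and the libraries did not mark the strand. PMVK, phosphomevalonate kinase, had 18.5, 19.3 and 18.0 CPM with GDC-0994 and 29.9, 27.7 and 29.7 CPM with DMSO, again without overlap, and fell by 0.65 ± 0.11 on the log2 scale (adjusted p 0.000154). MVK, the kinase before PMVK, fell by 0.41 ± 0.11 and FDPS, which makes farnesyl diphosphate, by 0.37 ± 0.10. The call of MVK was lost without GDC-0994 replicate 3 (log2 fold change -0.30), and that of FDPS without that library or without DMSO replicate 2. FDPS has 8 named pseudogenes that could share its reads. MVD, IDI1 and FDFT1, the decarboxylase, the isomerase and squalene synthase, were not called, at -0.21, -0.03 and -0.14.

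The later steps, from squalene to cholesterol, had 4 of 10 genes up, 2 down and 4 not called, where 49.8% of all genes tested were called. TM7SF2 (chr11:65111845-65116384, plus strand, GRCh38) changed most of all members. It had 112, 111 and 98.5 CPM with GDC-0994, against 16.6, 18.0 and 22.0 CPM with DMSO. The treated libraries lay far above the DMSO libraries, and the log2 fold change was 2.51 ± 0.14, a 5.68-fold rise (adjusted p 1.61e-10). LSS, which folds epoxidized squalene into lanosterol, rose by 0.49 ± 0.09, MSMO1, a sterol methyl oxidase, by 0.47 ± 0.12, and SC5D, a sterol desaturase, by 0.40 ± 0.14. SC5D lost its call in 5 of 19 other settings, 3 of which leave out DMSO replicate 1, DMSO replicate 2 or GDC-0994 replicate 2. EBP, the sterol isomerase, had 15.8, 13.5 and 12.2 CPM with GDC-0994 and 19.2, 20.4 and 20.4 CPM with DMSO. It fell by 0.53 ± 0.10 on the log2 scale (adjusted p 0.000240) with no overlap. SQLE, squalene epoxidase, fell by 0.27 ± 0.07, a call lost without DMSO replicate 1 (log2 fold change -0.17). CYP51A1, NSDHL, HSD17B7 and DHCR7 were not called, at -0.08, -0.19, 0.13 and 0.11. STARD4, which carries sterols between membranes, had 47.1, 60.4 and 75.4 CPM with GDC-0994 and 34.4, 41.3 and 39.3 CPM with DMSO. It rose by 0.67 ± 0.17 (adjusted p 0.00364). Its transcripts have the lowest GC content of the members, 34.2%, and its highest level was in GDC-0994 replicate 3, whose deviations correlated with GC content at -0.511, the most negative value among the KHM-5M libraries. STARD4 stayed called in all 19 other settings, including removal of each library's GC and length trend. The part of GC content in its rise was not tested beyond that removal.

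Summed per length, the sterol branch stood at 254 ± 9.48 FPKM with GDC-0994 and 233 ± 2.63 FPKM with DMSO in KHM-5M (SD, n = 3), and the lowest treated library, at 244 FPKM, lay above the highest DMSO library, at 235 FPKM. TM7SF2 alone accounted for this separation. Without it the other 18 genes stood at 222 ± 7.35 FPKM with GDC-0994 and 228 ± 2.55 FPKM with DMSO, and their libraries overlapped.

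In the fatty acid branch, SCD (chr10:100347124-100364834, plus strand, GRCh38) had 1965, 1817 and 1821 CPM with GDC-0994 and 1160, 1153 and 1227 CPM with DMSO in KHM-5M. The groups did not overlap, and SCD rose by 0.66 ± 0.06 on the log2 scale, or 1.58-fold (adjusted p 5.14e-08). SCD made up 46.5% ± 0.0937 of the branch's CPM with GDC-0994 and 35.1% ± 0.368 with DMSO. The other 9 genes together stood at 2146 ± 88.7 CPM with GDC-0994 and 2178 ± 43.0 CPM with DMSO, and these ranges overlapped. The sum of the whole branch per length was 634 ± 29.6 FPKM with GDC-0994 and 509 ± 9.46 FPKM with DMSO.

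The 5 members of elongation and desaturation were all called, 2 up and 3 down, where 49.8% of all genes tested were called. They are not all genes of these steps. Of 18 other genes of fatty acid synthesis and activation, which include further elongases and desaturases, 11 were not called. ELOVL6, the elongase that turns palmitate into stearate, had 22.0, 21.6 and 23.3 CPM with GDC-0994 and 33.2, 37.0 and 35.0 CPM with DMSO. ELOVL6 fell by 0.65 ± 0.10 on the log2 scale (adjusted p 3.08e-05), opposite to SCD, which uses its product. ELOVL5, an elongase of polyunsaturated fatty acids, had 149, 146 and 146 CPM with GDC-0994 and 189, 183 and 193 CPM with DMSO, and fell by 0.36 ± 0.06 (adjusted p 0.000137). The groups of both elongases were apart. FADS1 and FADS2, the neighbouring genes of the polyunsaturated fatty acid desaturases, moved apart: FADS1 fell by 0.30 ± 0.06 and FADS2 rose by 0.29 ± 0.09. The call of FADS2 was lost without DMSO replicate 2 (adjusted p 0.0526).

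At the entry of the branch, ACACA, which makes malonyl-CoA, rose by 0.29 ± 0.07 and ACSS2, which makes acetyl-CoA from acetate, by 0.26 ± 0.10. ACLY fell by 0.17 ± 0.06. The call of ACLY was lost in 16 of 19 other settings, and that of ACSS2 without DMSO replicate 1, DMSO replicate 2, GDC-0994 replicate 1 or GDC-0994 replicate 2. FASN was not called, at -0.08 ± 0.08. ACSL3, which activates fatty acids at lipid droplets and the endoplasmic reticulum, had 199, 233 and 259 CPM with GDC-0994 and 178, 173 and 171 CPM with DMSO. It rose by 0.40 ± 0.10 (adjusted p 0.00226), and all treated libraries were above all DMSO libraries. Like STARD4, ACSL3 has a low GC content, 38.1%, and treated levels that climbed from replicate 1 to replicate 3. The part of GC content in its rise was not tested beyond removing each library's trend.

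**Figure D3:**
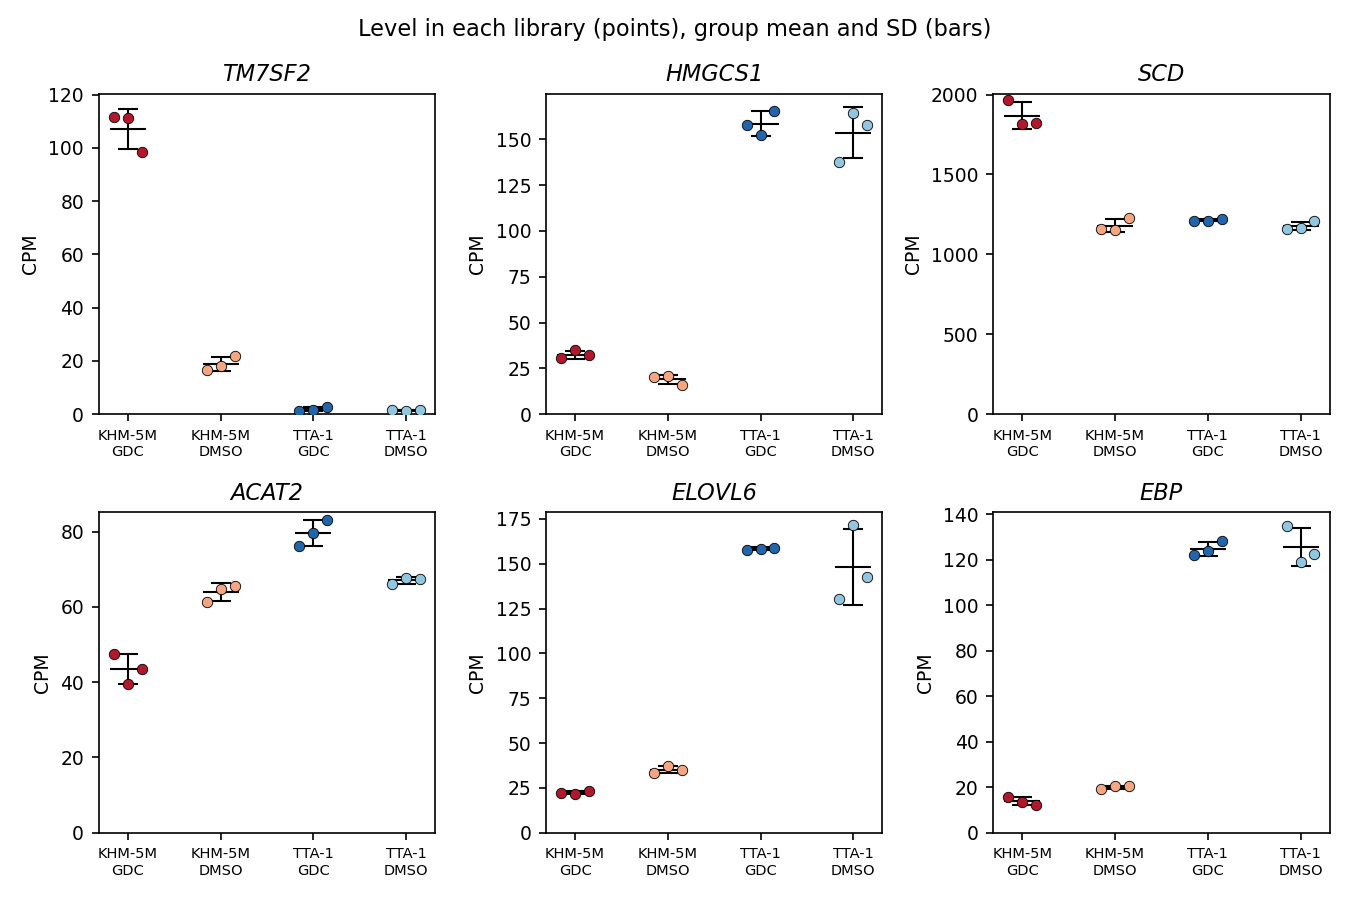
CPM of 6 genes in each library (points), with group means and SDs (bars), for KHM-5M with GDC-0994 and DMSO and TTA-1 with GDC-0994 and DMSO. The KHM-5M groups are separate for all 6 genes, and HMGCS1, ELOVL6 and EBP sit far higher in TTA-1 whatever the treatment.

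In TTA-1, none of the 34 genes passed, beside 3.43% of all genes tested (1.18% up and 2.24% down). At an unadjusted p below 0.05 there were 2, ACAT2 and MVD, and the DESeq2 Wald test called 1, ACAT2. ACAT2 had 76.2, 79.6 and 83.0 CPM with GDC-0994 and 66.1, 67.7 and 67.4 CPM with DMSO. These groups did not overlap, as for 4 of the 34 members and 18.8% of all genes tested, and the log2 fold change was 0.25 ± 0.08 (adjusted p 0.103). MVD had a log2 fold change of -0.29 ± 0.11 (adjusted p 0.186). The log2 fold changes of the members ranged from -0.29 for MVD to 0.37 for TM7SF2, with a median of -0.01. SREBF1 had 159, 161 and 155 CPM with GDC-0994 and 177, 154 and 166 CPM with DMSO. SREBF2 had 174, 189 and 180 CPM with GDC-0994 and 206, 176 and 192 CPM with DMSO. INSIG1 had 105, 117 and 121 CPM with GDC-0994 and 103, 126 and 102 CPM with DMSO. The groups overlapped for all 3 genes. Their log2 fold changes were -0.07, -0.08 and 0.05, with 95% intervals of -0.23 to 0.10, -0.25 to 0.10 and -0.16 to 0.26. For SCD the interval ran from -0.09 to 0.18 and for HMGCS1 from -0.17 to 0.26.

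The fit estimated 1 spread per gene from all 12 libraries, so the spread between TTA-1 DMSO libraries entered the errors of both lines. ELOVL6, for example, had 158, 158 and 159 CPM with GDC-0994 and 130, 171 and 143 CPM with DMSO, and STARD4 had 55.3, 50.4 and 59.0 CPM with GDC-0994 and 41.2, 69.6 and 50.7 CPM with DMSO. In both genes DMSO replicate 2 was highest and replicate 1 lowest. The SE of the treatment effect for ELOVL6 was 0.09 in TTA-1 and 0.10 in KHM-5M. For STARD4 it was 0.17 in each line. Without DMSO replicate 2, 3 members were called, all lower (MVD, NSDHL and DHCR7), while the count over all genes was 2620, against 556 with all libraries. The part of GC content in these values was not tested beyond removing each library's trend, after which ACAT2 and LSS were called, both higher.

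The test of the difference between the lines asks whether the response to GDC-0994 in KHM-5M departed from that in TTA-1. It called 12 members, 6 with a higher log2 fold change in KHM-5M and 6 with a lower one, or 35.3%, beside 27.9% of all genes tested (12.3% higher and 15.6% lower). With the stricter filter on low counts, 14 of 34 members and 4338 of 11877 genes were called. The differences of the log2 fold changes, KHM-5M minus TTA-1, were largest upward for TM7SF2 at 2.13 ± 0.31 (adjusted p 6.24e-05), HMGCS1 at 0.72 ± 0.14 (adjusted p 0.000781) and SCD at 0.62 ± 0.08 (adjusted p 1.74e-05). They were largest downward for ACAT2 at -0.80 ± 0.11 (adjusted p 3.56e-05), ELOVL6 at -0.75 ± 0.13 (adjusted p 0.000349) and PMVK at -0.75 ± 0.17 (adjusted p 0.00371). SREBF1 and SREBF2 were both called, at 0.33 ± 0.10 and 0.46 ± 0.11. INSIG1 was not, at 0.00 with a 95% interval of -0.29 to 0.30. By branch, 2 sterol genes were higher and 3 lower of 19, and 2 fatty acid genes were higher and 3 lower of 10. All 5 members of elongation and desaturation were called, SCD and FADS2 higher and FADS1, ELOVL5 and ELOVL6 lower. For the other 22 genes the responses in the lines are not shown to differ, among them LSS, MSMO1, SC5D and STARD4, which were called in KHM-5M and not in TTA-1. Of the 22, 10 were called for the difference in at least 1 of 24 other settings, LSS in 11, STARD4 in 10, DHCR7 in 9 and MSMO1 in 8.

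The lines already differed in DMSO. In KHM-5M, 9 members were higher and 16 lower than in TTA-1, 73.5% called, beside 76.5% of all genes tested (39.6% higher and 36.8% lower), so the share of members that differed was near that of all genes. These differences were larger than the responses to GDC-0994: 14 of 34 were beyond 1 on the log2 scale, against 1 for the treatment in KHM-5M. The sterol branch had 4 genes higher and 9 lower of 19, the fatty acid branch 3 higher and 5 lower of 10, and the regulators 2 higher and 2 lower of 5.

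HMGCS1 was lowest in KHM-5M relative to TTA-1, with 20.2, 20.8 and 16.2 CPM in KHM-5M and 138, 164 and 158 CPM in TTA-1, and the log2 fold change was -3.01 ± 0.10 (adjusted p 9.66e-14). EBP had 19.2, 20.4 and 20.4 CPM in KHM-5M and 135, 119 and 123 CPM in TTA-1, and its log2 fold change was -2.65 ± 0.09 (adjusted p 1.09e-13). SC5D had 7.56, 7.67 and 8.71 CPM in KHM-5M and 36.9, 53.2 and 42.8 CPM in TTA-1 with DMSO, so its log2 fold change was -2.47 ± 0.13 (adjusted p 3.31e-11). None of these 3 genes overlapped between the lines, nor did 77.8% of all genes tested. TM7SF2 led the genes higher in KHM-5M, with 16.6, 18.0 and 22.0 CPM, against 1.76, 1.25 and 1.58 CPM in TTA-1, and a log2 fold change of 3.62 ± 0.20 (adjusted p 3.53e-11). FADS2 had 248, 231 and 270 CPM in KHM-5M and 72.9, 56.9 and 66.9 CPM in TTA-1 with DMSO, and its log2 fold change was 1.93 ± 0.09 (adjusted p 4.81e-12). PMVK had 29.9, 27.7 and 29.7 CPM in KHM-5M and 10.0, 7.37 and 7.76 CPM in TTA-1, and its log2 fold change was 1.79 ± 0.12 (adjusted p 6.31e-10). The lines did not overlap for these genes either. For SCD in DMSO, the log2 fold change between the lines was 0.00, with a 95% interval of -0.13 to 0.14. SREBF2 was lower in KHM-5M, at -1.02 ± 0.08, and SREBF1 higher, at 0.47 ± 0.07, but with each library's GC and length trend removed SREBF1 was lower, at -0.40. That setting moved the share of members called higher to 21.4%, against 36% of those called in the fit as given.

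**Figure D4:**
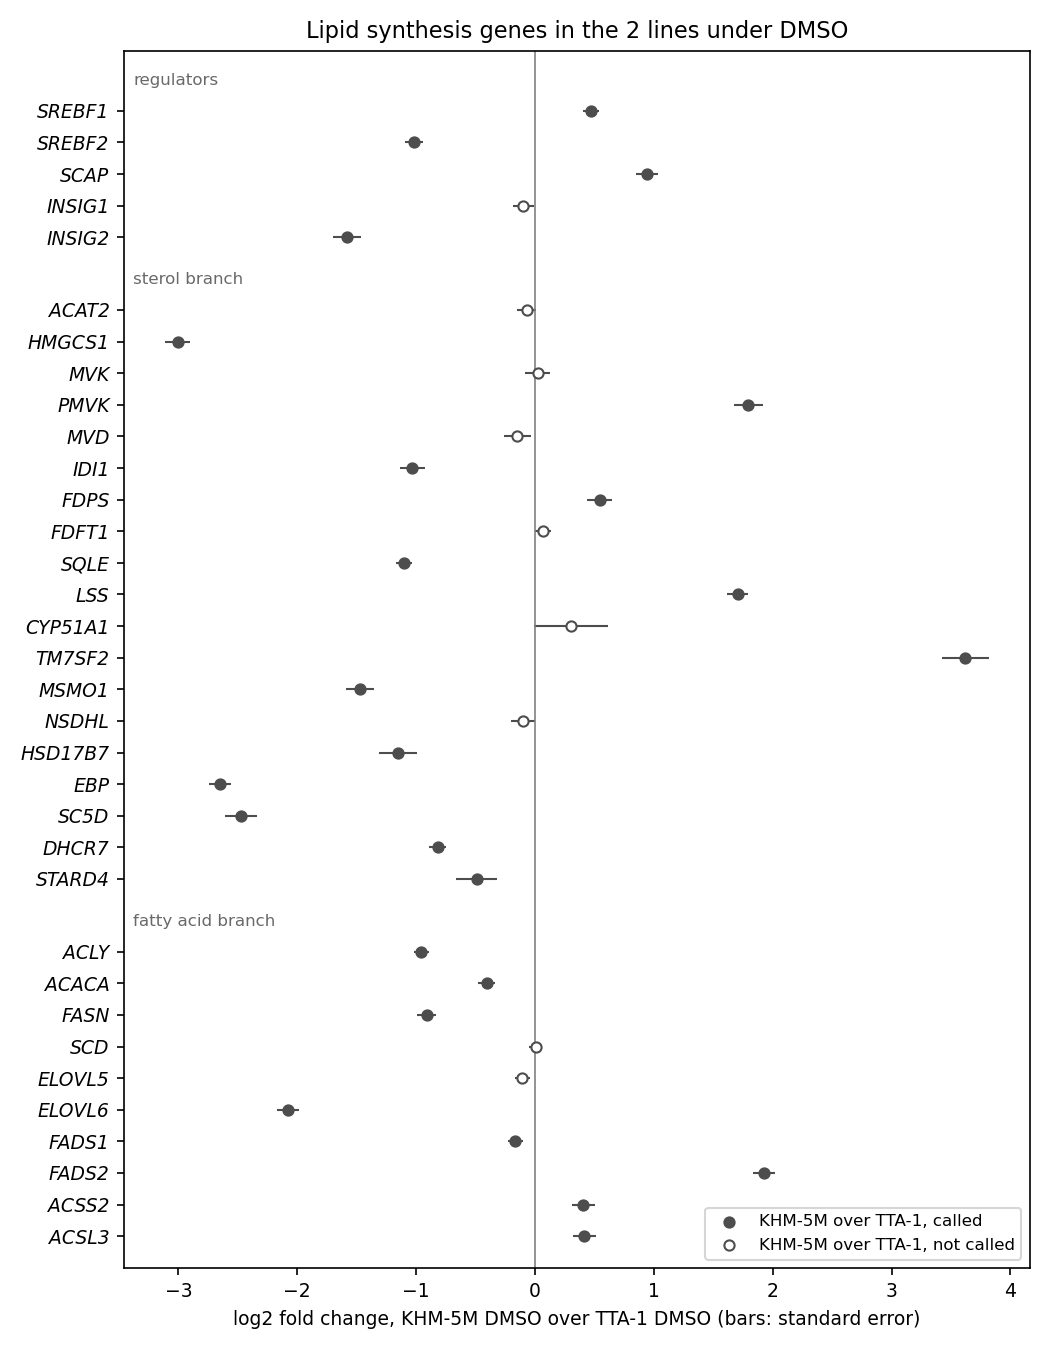
Log2 fold change of each gene between the lines under DMSO, KHM-5M over TTA-1, with bars for the standard error; filled points passed an adjusted p of 0.05. TM7SF2 lies farthest right at 3.62 and HMGCS1 farthest left at -3.01, and members of both branches lie on both sides of 0.

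Treatment moved some members of KHM-5M towards the level of TTA-1 and others away from it. HMGCS1 rose in the line where it was low, to 32.5 ± 2.23 CPM with GDC-0994 in KHM-5M, still far under the 153 ± 13.9 CPM of TTA-1 with DMSO (SD, n = 3). TM7SF2 rose in the line where it was already high. ELOVL6 and EBP fell in the line where they were already low, to 22.3 ± 0.889 and 13.8 ± 1.80 CPM with GDC-0994 in KHM-5M, against 148 ± 21.1 and 126 ± 8.26 CPM in TTA-1 with DMSO.

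Of 72 tested genes in 6 lists around the pathway, 36 were called in KHM-5M, 21 higher and 15 lower, a share near the 49.8% of all genes tested. Of 10 genes of SREBP cleavage and turnover, 4 rose and 3 fell. MBTPS1, the first protease to cut SREBP, rose by 0.42 ± 0.07 and RNF139, a ubiquitin ligase of the endoplasmic reticulum, by 0.42 ± 0.10, and ERLIN1, which takes part in sterol-regulated protein turnover, fell by 0.66 ± 0.06. Of 12 genes that use isoprenoids, 2 rose and 3 fell. GGPS1, which makes geranylgeranyl diphosphate, rose by 0.54 ± 0.12 and PGGT1B, a geranylgeranyl transferase subunit, by 0.48 ± 0.15. ICMT, which methylates prenylated proteins, fell by 1.10 ± 0.07 and PDSS1, which makes the ubiquinone tail, by 1.35 ± 0.16. Of 11 tested genes of sterol efflux, storage and the LXR receptors, 4 rose and 1 fell. ABCA1, the cholesterol exporter, rose by 0.99 ± 0.13 and CYP27A1, which hydroxylates cholesterol, by 1.20 ± 0.16, and SOAT1, which esterifies cholesterol, fell by 0.60 ± 0.10.

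Of 18 other genes of fatty acid synthesis and activation, 4 rose and 3 fell in KHM-5M. FADS3 rose by 1.24 ± 0.10 and ME1, a source of NADPH, by 0.94 ± 0.10, and the elongase ELOVL2 fell by 1.58 ± 0.14 and the acyl-CoA synthetase ACSL1 by 0.69 ± 0.09. Of 12 genes of fatty acid oxidation, 5 rose and 2 fell. PPARA, a receptor that drives oxidation genes, rose by 0.75 ± 0.09, and CPT1A, the gate of mitochondrial import, fell by 1.00 ± 0.11 and ACAA2 by 0.26 ± 0.10. Of 9 genes of triglyceride synthesis and lipolysis, 2 rose and 3 fell. PNPLA2, the first lipase of triglyceride breakdown, rose by 0.85 ± 0.08 and the droplet coat gene PLIN2 by 0.17 ± 0.07, and the lipases MGLL and LIPE fell by 1.80 ± 0.10 and 1.09 ± 0.25. In TTA-1, 3 genes of these 6 lists were called, or 4.17% of the 72 tested, near the 3.43% of all genes. NPC2, a lysosomal sterol carrier, fell by 0.60 ± 0.09, PNPLA2 by 0.46 ± 0.08 and AGPAT2, of triglyceride synthesis, by 0.48 ± 0.12.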

How the data were processed

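Poly-A RNA of 12 libraries was sequenced without marking the strand. Per the submitters' processing notes, the build was GRCh38 and the tools included featureCounts 1.5.0-p3, HISAT2 2.0.5 and CASAVA. The deposited counts are whole reads per gene as made by the authors. The deposited FPKM was found to be the count over gene length and a size per library (largest relative deviation 4.85e-07). The 3 KHM-5M GDC-0994 samples share 1 column name in the labels and were matched by replicate number. Counts were filtered with filterByExpr (minimum count 10), scaled by TMM and fitted in 1 edgeR 4.0.16 quasi-likelihood model of 4 groups (R 4.3.3, 8 residual degrees of freedom). The p-values were adjusted by Benjamini-Hochberg over 16218 genes and called at 0.05. Standard errors derive from the F statistic, CPM uses TMM-scaled totals, and 95% intervals use 8 degrees of freedom. On simulated data of 15678 genes, 185 of 200 changes made in KHM-5M were recovered and 5 unchanged genes were called. The changes made were of 1 or 2 on the log2 scale. Counts were drawn with the spread trend that the fit itself had estimated and without GC trends, so this checks only how the fit runs. Recovery of smaller changes, which most members had, was not tested. Alternatives used DESeq2 1.42.0, limma 3.58.1 on log2(FPKM + 1) and log2(FPKM + 0.1), other scalings and filters, GC and length trends (GC from GENCODE 29 transcripts), a replicate block and leaving out libraries. Values in every library are given for SREBF1, SREBF2, INSIG1, up to 6 sterol and 4 fatty acid genes per treatment comparison and up to 3 per direction for the other comparisons, by size among those called. STARD4 and ELOVL6 in TTA-1, and LBR and the neighbours of TM7SF2, were chosen after their values were seen. Other lists name up to 2 called genes per direction by smallest p, and 2 genes so chosen are not reported here. The members and lists were chosen with earlier results of these data known. The division of the branches into steps was not among the planned lists.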

Additional observations from a re-analysis of the deposited data

Results flagged for a closer look

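The response to GDC-0994 differed between the lines for 12 genes, by the edgeR test of the difference itself (log2 fold change in KHM-5M minus that in TTA-1). It was higher in KHM-5M for TM7SF2 by 2.13, HMGCS1 by 0.72, SCD by 0.62, SREBF2 by 0.46, FADS2 by 0.37 and SREBF1 by 0.33. The difference was -0.31 for FADS1, -0.43 for ELOVL5, -0.52 for EBP, -0.75 for PMVK, -0.75 for ELOVL6 and -0.80 for ACAT2. The calls of 9 of the 12 held in all 24 other settings. SREBF1 lost its call with the GC and length trend removed, and FADS1 and FADS2 lost theirs in 7 and 8 settings, most of which leave out 1 library.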

How the results depend on the processing

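In KHM-5M, 16 of 24 called members stayed called in all 19 settings, 8 lost the call in some and none changed sign. Of the 10 members not called, 7 were called in some setting, INSIG1 in 1 and INSIG2 in 2. Between 18 and 27 members were called. The most uneven split was 13 up and 7 down, without GDC-0994 replicate 3. In TTA-1 the members called were 1 with the DESeq2 Wald test, 2 with the GC and length trend removed, 2 when the block was added to that, and 0 to 3 when 1 library was left out. Over all genes TTA-1 gave 915 calls with the DESeq2 Wald test, 1206 with no filter, 206 with only the groups compared, 1008 with the trend removed, 1090 with the trend and the block, 341 with limma and no filter, and 259 to 2620 when 1 library was left out. For the difference, 21 members were called with the trend removed and 20 with the block as well, and the share higher reached 66.7% with no filter, against 50%. Between the lines, removing the trend turned the direction for SREBF1 (-0.40), MVK (-0.66), FDPS (-0.0023), FDFT1 (-0.14), STARD4 (0.041), SCD (-0.12), ELOVL5 (0.21) and ACSS2 (-0.10); the cause was not tested. Same-numbered libraries had correlations of -0.0791 to 0.0425 in KHM-5M and -0.0958 to 0.177 in TTA-1. Those of unlike numbers ran from -0.13 to 0.11 and from -0.29 to 0.296. With 3 libraries per group, these values cannot settle whether libraries were paired. The replicate block gave 23 members and 7849 genes in KHM-5M, 0 and 529 in TTA-1, and 13 and 4225 for the difference; it was not run between the lines. Library totals and upper quartile scaling moved the median of all genes between the lines to 0.13. CYP51A1 and TM7SF2 in TTA-1 rest on the fewest counts and have the widest errors.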

Other observations

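TM7SF2 was set beside its neighbours on chromosome 11 and beside LBR, which encodes another sterol reductase of the same step, all chosen after their values were seen. In KHM-5M, LBR averaged 142 ± 9.50 CPM with GDC-0994 and 231 ± 1.93 CPM with DMSO (SD, n = 3), and it fell by 0.70 ± 0.09 on the log2 scale (edgeR, adjusted p 8.04e-06), while TM7SF2 rose. In TTA-1, LBR averaged 115 ± 4.61 CPM with GDC-0994 and 115 ± 18.6 CPM with DMSO, far above TM7SF2 at 1.99 ± 0.801 and 1.53 ± 0.258 CPM. VPS51, whose last exon overlaps the start of TM7SF2, averaged 175 ± 8.76 CPM with GDC-0994 and 167 ± 5.16 CPM with DMSO in KHM-5M, and its log2 fold change of 0.07 was not called (adjusted p 0.562). ZNHIT2, 19 bases from TM7SF2, was not called either, at -0.04 (adjusted p 0.852). AP003068.4, an unclassified transcript 1926 bases from TM7SF2, also rose, by 2.47 ± 0.53 (adjusted p 0.000955), at 1.08 ± 0.162 CPM with GDC-0994 and 0.191 ± 0.0882 CPM with DMSO. Among the other tested genes within 50000 bases, CDCA5 fell by 2.99 ± 0.08 and MRPL49 by 0.25 ± 0.08, and ZFPL1, FAU and SYVN1 were not called. In TTA-1, VPS51 fell by 0.38 ± 0.10 (adjusted p 0.0369). Its responses in the lines differed by 0.45 ± 0.13 (adjusted p 0.0179). ZNHIT2, at -0.49 ± 0.15 (adjusted p 0.0840), and the other neighbours were not called in TTA-1.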
